A study of Mus musculus with 12 samples.

Results

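The miR-17 to miR-92a cluster is a group of microRNAs cut from a single primary transcript. Its members were taken by name from a panel of quantitative RT-PCR assays: both arms of miR-17 (mmu-miR-17-5p and mmu-miR-17-3p) and the main arms of its partners (mmu-miR-18a-5p, mmu-miR-19a-3p, mmu-miR-19b-3p, mmu-miR-20a-5p and mmu-miR-92a-3p), 7 of the 504 microRNAs measured. The tissue was epididymal fat, a visceral depot beside the testis, of male C57BL/6J wild-type mice. Each of 4 groups gave 3 pools, made from 12 mice per group, so a pool averages several animals and hides their own spread. The question that the groups address is whether a high-fat diet in early life or for life changes microRNAs of adult fat.

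The WL group had the high-fat diet D12451, with 45% of its energy as fat, from mating until the animals were killed at 23 weeks. The UL group had that diet from mating to weaning, and the UT group in utero only, through the dams. The CD group had the matching control diet D12450H, with 10% of its energy as fat. The labels do not spell out the diet of UL and UT mice after their exposure. All parents were on a standard breeding diet before mating. The cohorts behind the pools were 23 WL mice of 21 litters, 25 UL mice of 19 litters, 27 UT mice of 17 litters and 22 CD mice of 17 litters. How mice and litters were divided among pools is not stated, so the p-values below measure the spread between pools only.

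A microRNA gene is transcribed as a long precursor, from which the enzyme Drosha cuts a hairpin and Dicer cuts a short duplex. One strand of the duplex is usually loaded into an Argonaute protein and pairs, mainly through its seed near the 5′ end, with messenger RNAs that it represses. The cluster is known as an oncogenic locus driven by MYC and E2F factors, as a regulator of lymphocyte and lung development, and, in cultured mouse preadipocytes, as a locus whose expression speeds adipocyte formation. Each hairpin is released separately, so members that share a transcript can still differ in level.

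The mature sequences are shown because they set which assays could read each other's product and which members can share targets. They come from RefSeq (GRCm38.p6), in which 7 of 7 members were matched, and the seed, bases 2 to 8, is in capitals.
mmu-miR-17-5p: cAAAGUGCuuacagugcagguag
mmu-miR-20a-5p: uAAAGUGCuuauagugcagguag
mmu-miR-106a-5p: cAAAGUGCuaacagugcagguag
mmu-miR-18a-5p: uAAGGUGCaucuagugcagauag
mmu-miR-19a-3p: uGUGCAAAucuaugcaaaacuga
mmu-miR-19b-3p: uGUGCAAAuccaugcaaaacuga
mmu-miR-92a-3p: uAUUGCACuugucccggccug
mmu-miR-17-3p: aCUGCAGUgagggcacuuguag
The main arms fall into 4 seed groups: miR-17-5p with miR-20a-5p, miR-18a-5p alone, miR-19a-3p with miR-19b-3p, and miR-92a-3p. miR-17-3p, the other arm of the miR-17 hairpin, has a seed of its own. miR-106a-5p belongs to a related cluster on chromosome X and is listed because it differs from miR-17-5p by 1 base, U10A, counted from the 5′ end of miR-17-5p. miR-17-5p and miR-20a-5p differ at 2 positions (C1U and C12U), and miR-19a-3p and miR-19b-3p at 1 (U11C).

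The 6 hairpins lie on the + strand of chromosome 14 within 836 bases, at chr14:115043671-115044506, in the order Mir17, Mir18, Mir19a, Mir20a, Mir19b-1 and Mir92-1. Neighbouring hairpins are 35 to 96 bases apart. The host gene Mir17hg, as annotated at chr14:115044390-115046728, overlaps only the last 2 of them, and Mir19b-1 only at its end (115044391). The extent of the primary transcript was not measured here. The hairpin of Mir17 (chr14:115043671-115043754, + strand) is shown because its arms are the only pair of members cut from a single hairpin, with the arms in capitals, the 5p arm first.
Mir17: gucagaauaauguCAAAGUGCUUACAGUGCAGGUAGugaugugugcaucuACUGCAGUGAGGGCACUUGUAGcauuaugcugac
miR-19b-3p and miR-92a-3p are also encoded on chromosome X, by Mir19b-2 and Mir92-2, with the same mature sequence. Their assays read the product of both loci and cannot tell them apart.

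The values are threshold cycles (Ct), the PCR cycle at which the signal crosses a set line, so an earlier cycle means more template. Levels are given as relative levels: the Ct averaged over the 466 microRNAs that every pool measured, minus the member's own Ct. They are on the log2 scale, and 1 cycle stands for 2-fold if the PCR doubles its product each cycle. Each pool gave a Ct for 492 to 506 assays, reference RNAs included, with a median Ct of 24.62 to 25.29. All 7 members were measured in all 12 pools. Fat microRNAs were present, miR-143-3p at a mean relative level of 4.43, miR-103-3p at 3.65 and miR-107-3p at -0.25. Endothelial miR-126a-3p was at 7.47 and miR-126a-5p at 6.97. Leukocyte markers lay between -1.51 for miR-142-5p and 4.44 for miR-150-5p, with miR-142-3p at 4.00 and miR-155-5p at -0.91. Epithelial markers lay between 1.45 for miR-429 and 3.48 for miR-200c-3p, so the pads held RNA of other cell types. In bulk tissue, fewer cells of a type and less of a microRNA per cell cannot be told apart.

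Pools 2 of UT and 3 of WL stood apart from the others. On the first principal component, which held 25.9% of the variance, they lay at 16.2 and 21.5, against -7.67 to 2.75 for the other 10 pools. The SD of their microRNAs around the group means was 0.85 for UT 2 and 0.98 for WL 3, against 0.39 to 0.80. Differences of WL and UT from CD are given with and without these pools.

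The members spanned a wide range of levels, and miR-92a-3p was the highest. Its mean relative level over 12 pools was 4.38, rank 70 of 504 microRNAs from the top, followed by miR-20a-5p at 3.00 (rank 111) and miR-17-5p at 1.34 (rank 181). miR-19b-3p was near the average assay at 0.17 (rank 237). Below it came miR-18a-5p at -1.38 (rank 318), miR-17-3p at -1.74 (rank 332) and miR-19a-3p at -2.62 (rank 375). These correspond to mean Ct values between 20.48 for miR-92a-3p and 27.48 for miR-19a-3p, all well before cycle 35. The order describes assay readings, since assays may differ in efficiency and no calibration was used here.

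The upper part of that order held in every pool. miR-92a-3p exceeded miR-20a-5p, miR-20a-5p exceeded miR-17-5p, and miR-19b-3p exceeded miR-18a-5p in 12 of 12 pools. miR-17-5p exceeded miR-19b-3p in 10 of 12. Neighbours at the bottom did not separate beyond their spread: miR-18a-5p exceeded miR-17-3p in 8 of 12 pools, with a mean difference of 0.36 cycles and an SD of 0.83, and miR-17-3p exceeded miR-19a-3p in 9 of 12, with 0.88 and an SD of 1.29. The members with nearly identical sequences were far apart in level. miR-19b-3p averaged 2.96 ± 0.87 cycles above miR-19a-3p in WL, 3.15 ± 0.49 in UL, 2.36 ± 0.31 in UT and 2.68 ± 0.25 in CD (SD, n = 3 pools each).

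**Figure D1:**
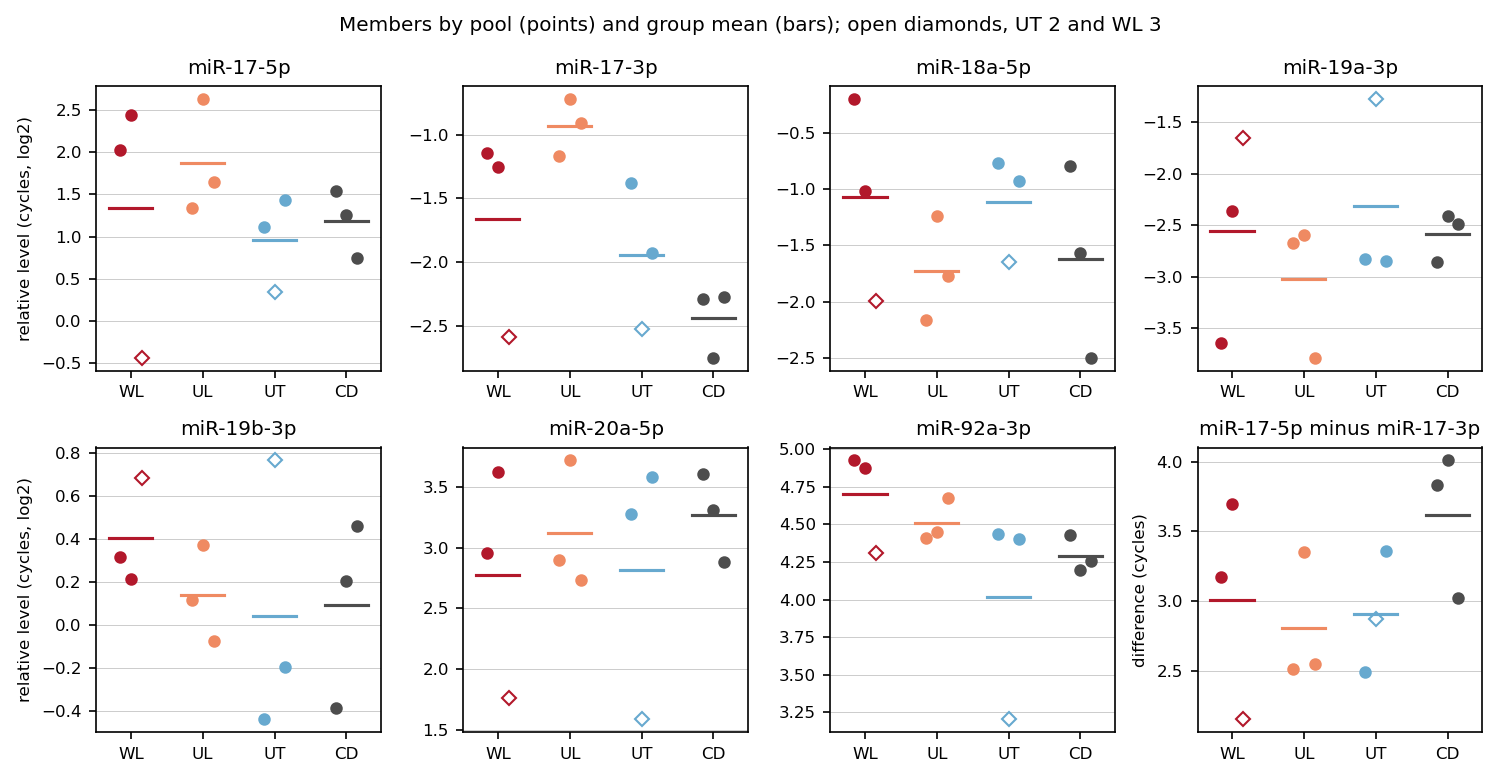
Relative level of each of the 7 members (y axis, cycles on the log2 scale) in the pools of WL, UL, UT and CD (x axis); points are pools, bars are group means, and open diamonds are UT 2 and WL 3. The last panel gives miR-17-5p minus miR-17-3p in cycles. In the miR-17-3p panel the 3 UL pools, -1.17 to -0.72, lie above the 3 CD pools, -2.76 to -2.27.

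No member passed the test in any comparison with the control diet. Of all 504 microRNAs, limma called 0.595% in WL, 0.595% in UL and 1.39% in UT at an adjusted p under 0.05 (Benjamini-Hochberg), against 0 of 7 members in each. An unadjusted p under 0.05 was reached by 0 members and 36 of all microRNAs in WL, by 1 member and 14 of all in UL, and by 0 members and 51 of all in UT. The member in UL was miR-17-3p. These 3 comparisons share the CD pools.

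miR-17-3p, the arm of miR-17 that is less often loaded into Argonaute, had its highest levels in the UL group. Its relative levels were -1.14, -1.26 and -2.59 in WL, -1.17, -0.72 and -0.91 in UL, -1.38, -2.53 and -1.93 in UT, and -2.29, -2.76 and -2.27 in CD. All 3 UL pools lay above all CD pools and above all UT pools, while WL and UT each held 1 pool as low as the controls, WL 3 and UT 2. Group means were -1.66 ± 0.80 in WL, -0.93 ± 0.23 in UL, -1.95 ± 0.57 in UT and -2.44 ± 0.27 in CD (SD, n = 3). In that order of means, UL, WL, UT and CD, each neighbouring pair of groups overlapped in range. The difference of UL from CD was 1.51 on the log2 scale, or 2.84-fold, with an SE of 0.43 and a 95% interval of 0.57 to 2.45 (limma adjusted p = 0.460). It therefore did not pass the threshold over all microRNAs.

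Ranges that do not overlap were common in these data. Against CD they were found for 0 of 7 members in WL, where 11% of all microRNAs had them, for 1 of 7 in UL, where 7.88% did, and for 0 of 7 in UT, where 14% did. miR-17-3p was the 1 member in UL.

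The direction of miR-17-3p in UL was the same under all 23 alternative settings, with a log2 fold change of 1.35 to 1.87 and a limma adjusted p of 0.035 to 1.000. Several settings could not move the fold change: other filters, the 2-group fit, the replicate block and leaving out WL or UT pools. It was 1.51 in these by construction. The only setting in which miR-17-3p in UL passed was the one without UT 2 and WL 3, chosen after seeing the data. There the fold change stayed 1.51, since no UL or CD pool was removed, while the SE fell to 0.29 (limma adjusted p = 0.035; 1.19% of all microRNAs called). Without the same pools, miR-17-3p was 1.24 above CD in WL (SE 0.32, limma adjusted p = 0.194) and 0.78 above CD in UT (SE 0.32, limma adjusted p = 0.340). With all pools these differences were 0.78 (SE 0.43, limma adjusted p = 0.762) and 0.49 (SE 0.43, limma adjusted p = 0.790). Marker lists are given per pool as the list average of each marker's deviation from its own mean. Opposite moves of single markers within a list are therefore not seen. The leukocyte list, 5 of 5 measured, deviated by -0.31 to 0.29 cycles in UL pools and -0.01 to 0.40 in CD pools. The epithelial list, 6 of 6 measured, deviated by -0.15 to 0.94 in UL pools and -1.01 to 1.54 in CD pools. Both of these lists overlapped between the groups. The skeletal muscle list, 3 of 3 measured, deviated by 0.21 to 0.25 in UL pools and -0.17 to 0.10 in CD pools, so its average lay above CD in all UL pools. The fat, endothelial, erythroid and liver lists overlapped between UL and CD. The part of these cell types in the result was not tested.

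miR-17-5p, the main arm of the same hairpin and the archetype of its seed group, had the highest residual SD of the 7 members. Its relative levels were 2.03, 2.44 and -0.44 in WL, 1.34, 2.63 and 1.64 in UL, 1.11, 0.34 and 1.43 in UT, and 1.55, 1.25 and 0.75 in CD. The groups overlapped, and WL held both the second highest and the lowest pool of the series. Its residual SD, 0.92 cycles, was at the 82nd percentile of all microRNAs, whose median was 0.53. By group its SD was 1.56 in WL, which holds WL 3, against 0.67 in UL, 0.56 in UT and 0.40 in CD. In CD miR-18a-5p varied most of the members (SD 0.86), and in UT miR-20a-5p did (SD 1.08). For miR-17-5p the difference from CD was 0.16 in WL (95% interval -1.31 to 1.63), 0.69 in UL (-0.78 to 2.16) and -0.22 in UT (-1.69 to 1.25), with limma adjusted p of 0.978, 0.995 and 0.945. Such intervals leave room for a more than 2-fold change in either direction in WL and UT. The difference without UT 2 and WL 3 was 1.05 in WL and 0.09 in UT (SE 0.43 each; limma adjusted p 0.476 and 0.929).

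Both arms are cut from one hairpin in equal number. Their difference within a pool needs no scaling, since the pool's scaling value drops out of it, as for any pair of assays. miR-17-5p exceeded miR-17-3p by 3.17, 3.70 and 2.15 cycles in WL, 2.51, 3.35 and 2.55 in UL, 2.49, 2.87 and 3.36 in UT, and 3.83, 4.01 and 3.02 in CD. The 5p arm was the higher one in all 12 pools, and the gap was widest on average in CD, with ranges that overlapped. The mean gaps were 3.01 ± 0.79, 2.80 ± 0.47, 2.91 ± 0.44 and 3.62 ± 0.53 cycles for WL, UL, UT and CD (SD, n = 3). The gap was smaller than in CD by 0.61 cycles in WL, 0.82 in UL and 0.71 in UT. Two-sided exact permutation tests gave p = 0.4 in WL, 0.2 in UL and 0.2 in UT, where 3 pools against 3 cannot go below 0.1.

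miR-20a-5p, which shares the seed of miR-17-5p and acts on overlapping targets, read 2.96, 3.62 and 1.76 in WL, 2.90, 3.72 and 2.73 in UL, 3.28, 1.58 and 3.58 in UT, and 3.61, 3.31 and 2.89 in CD. Its lowest pools were UT 2 and WL 3, and the other 10 pools lay between 2.73 and 3.72 in all diets. The difference from CD was -0.49 in WL, -0.15 in UL and -0.46 in UT (SE 0.59 each; limma adjusted p 0.956, 0.995 and 0.837). It was 0.02 in WL and 0.16 in UT without UT 2 and WL 3 (SE 0.40 each; limma adjusted p 0.996 and 0.894).

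miR-18a-5p shares its seed with no other member, and that seed is 1 base away from the seed of miR-17-5p. It read -0.19, -1.02 and -2.00 in WL, -2.17, -1.24 and -1.78 in UL, -0.76, -1.65 and -0.93 in UT, and -0.79, -1.57 and -2.50 in CD. CD alone spanned most of the range of the series, and no group stood apart. Differences from CD were 0.55, -0.11 and 0.51 in WL, UL and UT (SE 0.54 each; limma adjusted p 0.956, 0.995 and 0.810). They were, without UT 2 and WL 3, 1.01 in WL and 0.78 in UT (SE 0.51 each; limma adjusted p 0.672 and 0.576).

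The miR-19 pair, the members held chiefly responsible for the cluster's oncogenic activity in mouse lymphoma, did not differ by diet beyond the spread. miR-19a-3p read -3.64, -2.37 and -1.66 in WL, -2.67, -2.60 and -3.79 in UL, -2.83, -1.28 and -2.85 in UT, and -2.85, -2.42 and -2.49 in CD. miR-19b-3p read 0.32, 0.21 and 0.68 in WL, 0.11, 0.37 and -0.08 in UL, -0.44, 0.76 and -0.20 in UT, and -0.39, 0.20 and 0.46 in CD. Both were highest in UT 2, and WL 3 came next. For miR-19a-3p the differences from CD were 0.03 in WL, -0.43 in UL and 0.27 in UT (SE 0.57 each), and for miR-19b-3p 0.31, 0.04 and -0.05 (SE 0.37 each). limma adjusted p ranged over these 6 tests between 0.935 and 1.000. Without UT 2 and WL 3 the sign of miR-19a-3p turned, to -0.42 in WL and -0.25 in UT (SE 0.47 each; limma adjusted p 0.969 and 0.850). miR-19b-3p was then at 0.17 in WL and -0.41 in UT (SE 0.34 each; limma adjusted p 0.971 and 0.660).

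miR-92a-3p, known in mouse as a restraint on vessel growth in endothelial cells, had the lowest residual SD of the members, 0.40 against 0.42 for miR-19b-3p. Over all 12 pools miR-19b-3p had the narrower range, 1.21 cycles, against 1.72 for miR-92a-3p. miR-92a-3p read 4.93, 4.87 and 4.31 in WL, 4.41, 4.45 and 4.67 in UL, 4.44, 3.20 and 4.40 in UT, and 4.43, 4.19 and 4.26 in CD. Apart from UT 2, every pool lay between 4.19 and 4.93. Differences from CD were 0.41 in WL, 0.22 in UL and -0.28 in UT (SE 0.36 each; limma adjusted p 0.956, 0.995 and 0.838). The 95% interval in WL was -0.38 to 1.20. Without UT 2 and WL 3 the differences were 0.61 in WL and 0.13 in UT (SE 0.28 each; limma adjusted p 0.550 and 0.880), so that the sign in UT turned.

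**Figure D2:**
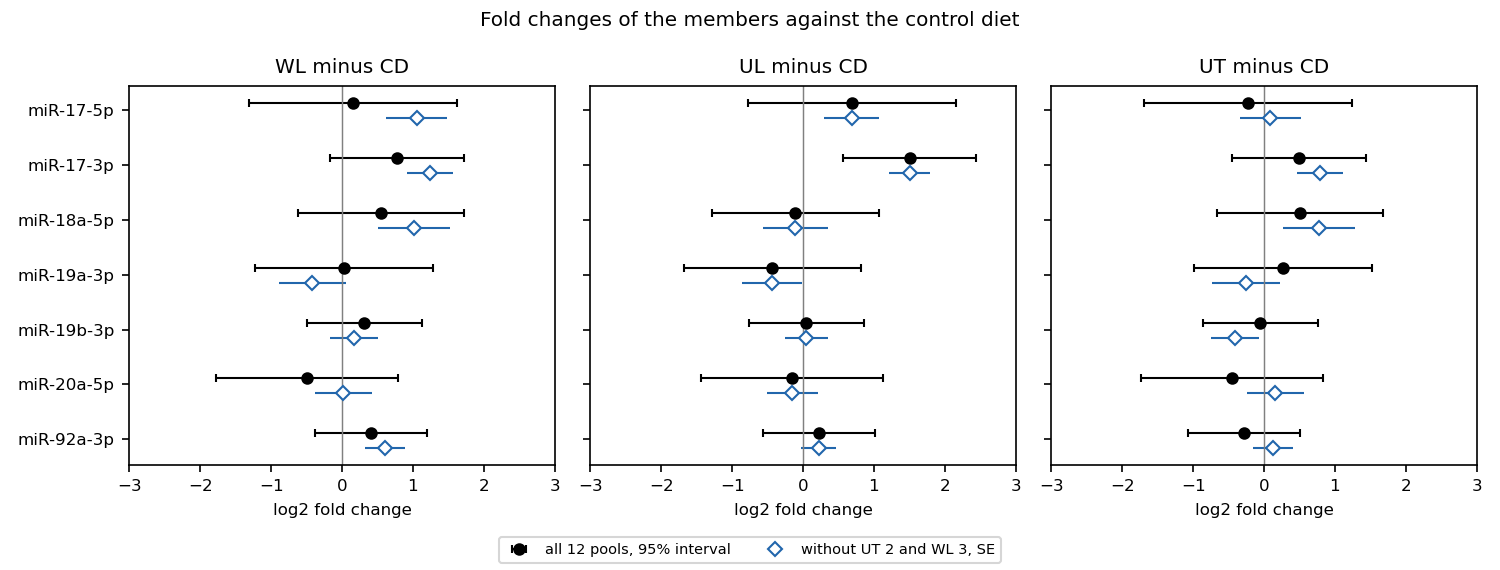
Log2 fold change against CD (x axis) of each member (y axis) in WL, UL and UT; filled circles with 95% intervals use all 12 pools, open diamonds with SE bars leave out UT 2 and WL 3. Of the filled circles, the interval of miR-17-3p in UL, 0.57 to 2.45, is the one that lies off 0.

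The members were also described by their median. Their median log2 fold change was 0.31 in WL, with 6 of 7 above 0, against a median of -0.06 over all microRNAs and 43.5% above 0. In UL it was 0.04, with 4 of 7 above 0, against -0.07 and 43.7% over all microRNAs. In UT it was -0.05, with 3 of 7 above 0, against -0.01 and 48.8%. Without UT 2 and WL 3 the median of the members was 0.61 in WL, with 6 of 7 above 0, against 0.01 over all microRNAs. In UT it was then 0.13, with 5 of 7 above 0, against 0.01. Scaling to the reference RNA RNU-43 moved the median of all microRNAs by 0.37 in UL and 0.74 in UT, and by 0.01 in WL. Members above 0 then numbered 6 in WL, 6 in UL and 7 in UT. Such scaling moves microRNAs together, and the share of all of them above 0 under it is not given here. The counts are therefore not read as a trait of the members. The number above 0 in UL and UT thus differed between the scalings, while miR-17-3p in UL was above 0 under both.

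The exposures were also set against each other. limma called 0% of all microRNAs and 0 of 7 members in WL against UL, in WL against UT and in UL against UT. An unadjusted p under 0.05 was found for 27, 79 and 40 microRNAs in these comparisons, and for 0, 0 and 1 of the members. The 1 member was again miR-17-3p, 1.01 higher in UL than in UT (SE 0.43, 95% interval 0.08 to 1.95, limma adjusted p = 0.601). The difference was 0.72 without UT 2 and WL 3 (SE 0.32, limma adjusted p = 0.464). As a list average, the epithelial list deviated by -0.15 to 0.94 cycles in UL pools and by -2.48 to -0.47 in UT pools. The fat list, 3 of 4 matched by name, deviated by 0.13 to 0.54 and -0.76 to -0.48. Neither list overlapped between UL and UT, both were higher in UL, and their part in the result was not tested. The leukocyte, endothelial, erythroid, skeletal muscle and liver lists overlapped between UL and UT. miR-17-3p was also the only member with ranges that did not overlap in UL against UT, where 13.3% of all microRNAs had such ranges. No member had them in WL against UL (9.88% of all) or in WL against UT (19.3% of all). In WL against UL miR-17-3p differed by -0.73 (SE 0.43, limma adjusted p = 0.805), and by -0.27 without UT 2 and WL 3 (SE 0.32, limma adjusted p = 0.955). RNU-43 scaling moved the median of all microRNAs by -0.38 in UL against UT, -0.35 in WL against UL and -0.72 in WL against UT. Members above 0 then numbered 3, 2 and 0, against 5, 4 and 5 with the main scaling. Of all microRNAs, 46.6%, 46.8% and 44.0% were above 0 with the main scaling. The lowest adjusted p of a member in WL against UT was that of miR-92a-3p, 0.69 higher in WL (SE 0.36, limma adjusted p = 0.371), or 0.48 without UT 2 and WL 3 (SE 0.30, limma adjusted p = 0.450). A limma F test over the 4 groups called 0.397% of all microRNAs and 0 of 7 members, with 50 microRNAs and 1 member, miR-17-3p, at an unadjusted p under 0.05. Adjusted p of the members in that F test was 0.439 to 0.951.

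Across pools, the members did not move as a single block. Over all 21 pairs of members, 11 had an r above 0 (52.4%), with a median of 0.29. miR-19a-3p and miR-19b-3p, which share a seed, were then set against the other members. This split was chosen with earlier results of these data known, so counts by it are description and not a test. miR-17-5p, miR-17-3p, miR-18a-5p, miR-20a-5p and miR-92a-3p deviated together, with r above 0 in 10 of 10 pairs, between 0.29 and 0.80 (median 0.56, n = 12 pools). miR-19a-3p and miR-19b-3p ran the other way: of their 10 pairs with those 5, 0 had an r above 0, with values of -0.75 to -0.28 and a median of -0.49. With each other they had r = 0.61 and Spearman's rho = 0.69. Over all 108345 pairs of microRNAs measured in every pool the median r was -0.01, with 49.1% above 0, and the 5th and 95th percentiles were -0.58 and 0.62. The points share the pool, its RNA and the scaling factor, and correlations are given as description. Unscaled Ct gave the same signs, 10 of 10 and 0 of 10.

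Much of the opposition came with 2 pools. In UT 2, miR-19a-3p and miR-19b-3p were at their highest of all 12 pools, 1.34 and 0.60 cycles above their means, while miR-20a-5p and miR-92a-3p were at their lowest, 1.41 and 1.18 cycles below. In WL 3, miR-17-5p was at its lowest, 1.78 below its mean, and miR-19a-3p was 0.96 above. Either pool was the highest or lowest in 5 of 7 members, and in 239 of 466 microRNAs, or 51.3%. Taken singly, UT 2 was so in 4 of 7 members and 18.2% of the 466 microRNAs, and WL 3 in 1 of 7 and 33.9%. By this measure UT 2 was not unusual over all microRNAs: UT 3 was the highest or lowest in 32.8% of them, and in 0 of 7 members. Without them, the median r of the miR-19 pair with the other members was -0.15, and 4 of 10 were above 0. miR-20a-5p with miR-19a-3p changed from r = -0.52 over 12 pools to 0.53 over 10. The 5 other members kept r above 0 in 8 of 10 pairs, with a median of 0.48, and the 2 miR-19 members had r = 0.20.

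Markers of other cell types differed in these pools as follows. The leukocyte list deviated by -0.30 cycles in UT 2 and 0.80 in WL 3, against -0.91 to 0.40 in the other pools. The endothelial list, 2 of 2 measured, deviated by 0.18 and -0.23 in these pools, against -0.48 to 0.43, and erythroid miR-451a, 1 of 2 listed, by 0.38 and -0.94, against -0.70 to 0.87. The liver marker miR-122-5p deviated by -0.63 and -1.19, low in both, against -0.77 to 1.61. The epithelial list deviated by -0.47 and 0.76, against -2.48 to 1.70, and the skeletal muscle list by -0.15 and 0.19, against -1.24 to 0.80. The fat list deviated by -0.51 and -0.44, against -0.76 to 0.54. Outside the range of the other pools were the leukocyte list (high), miR-451a (low) and miR-122-5p (low), each in WL 3. The part of cell makeup or RNA quality in the pattern was not tested.

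**Figure D3:**
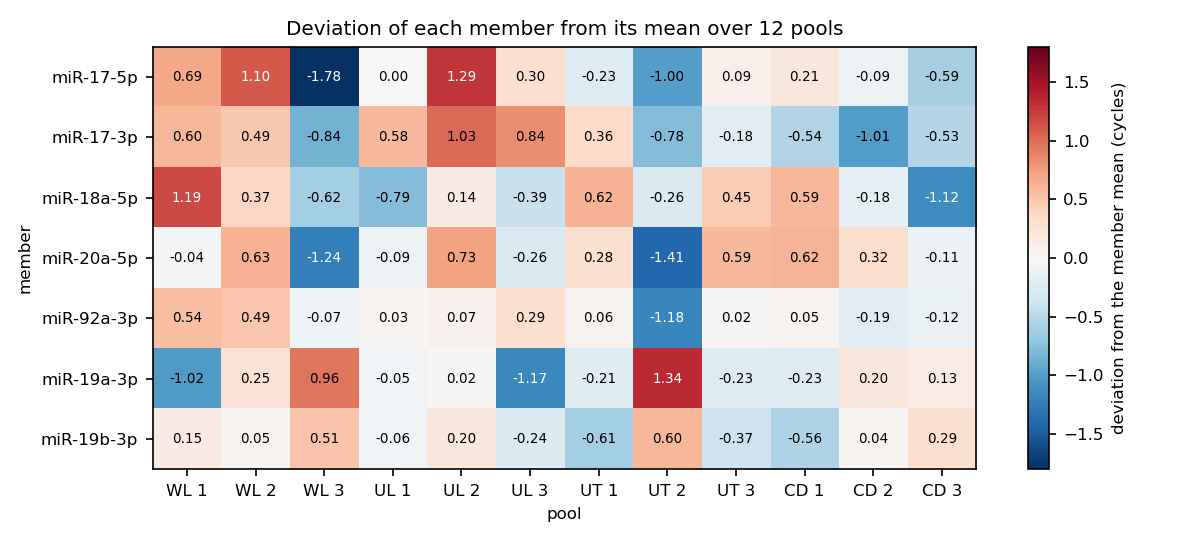
Deviation of each member (rows) from its mean over 12 pools, in cycles (colour and printed value), by pool (columns). In columns UT 2 and WL 3 the 2 miR-19 rows are above their means, 0.51 to 1.34, while the 5 other rows are below theirs.

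miR-17-5p followed its near copy on chromosome X more closely than the other arm of its own hairpin by r. With miR-106a-5p, r was 0.90 and rho 0.87 over 12 pools, and 0.82 without UT 2 and WL 3. With miR-17-3p, r was 0.73 and rho 0.76 over 12 pools and 0.63 over 10, and the difference between these correlations was not tested. With miR-20a-5p, r was 0.80 over 12 pools and 0.48 over 10. miR-106a-5p was the more abundant reading: miR-17-5p minus miR-106a-5p was -0.90 ± 0.78 cycles in WL, -0.50 ± 0.14 in UL, -1.18 ± 0.05 in UT and -0.90 ± 0.19 in CD (SD, n = 3). Assays for sequences that differ by 1 base may read part of each other's product, and the labels say nothing of their specificity.

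Ranked by r with the mean profile of the 7 members over 12 pools, the 5 microRNAs most like it were miR-106a-5p (0.92), miR-101b-3p (0.89), miR-301a-3p (0.88), miR-350-3p (0.87) and miR-29c-3p (0.84). Over the 10 pools without UT 2 and WL 3 these were 0.87, 0.85, 0.83, 0.82 and 0.74. Single members had other nearest profiles. miR-17-5p was closest to miR-101b-3p (r = 0.97, or 0.92 over 10 pools), miR-17-3p to miR-351-5p (0.93, or 0.92), and miR-18a-5p to miR-26b-5p (0.83, or 0.82). For miR-20a-5p it was miR-434-5p (0.85, or 0.50), for miR-92a-3p miR-1906 (0.88, or 0.45), and for miR-19a-3p miR-383 (0.78, or 0.63). Every likeness in this paragraph was lower without the pools that stood apart, and those of miR-20a-5p and miR-92a-3p fell most. miR-19b-3p was closest to 1 of 2 assays named miR-378 (0.84, or 0.71). All of these microRNAs were picked for the highest r among the non-members measured in every pool, so the choice itself makes r high. The 10 pools are part of the 12 used for the choice and give no separate check.

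**Figure D4:**
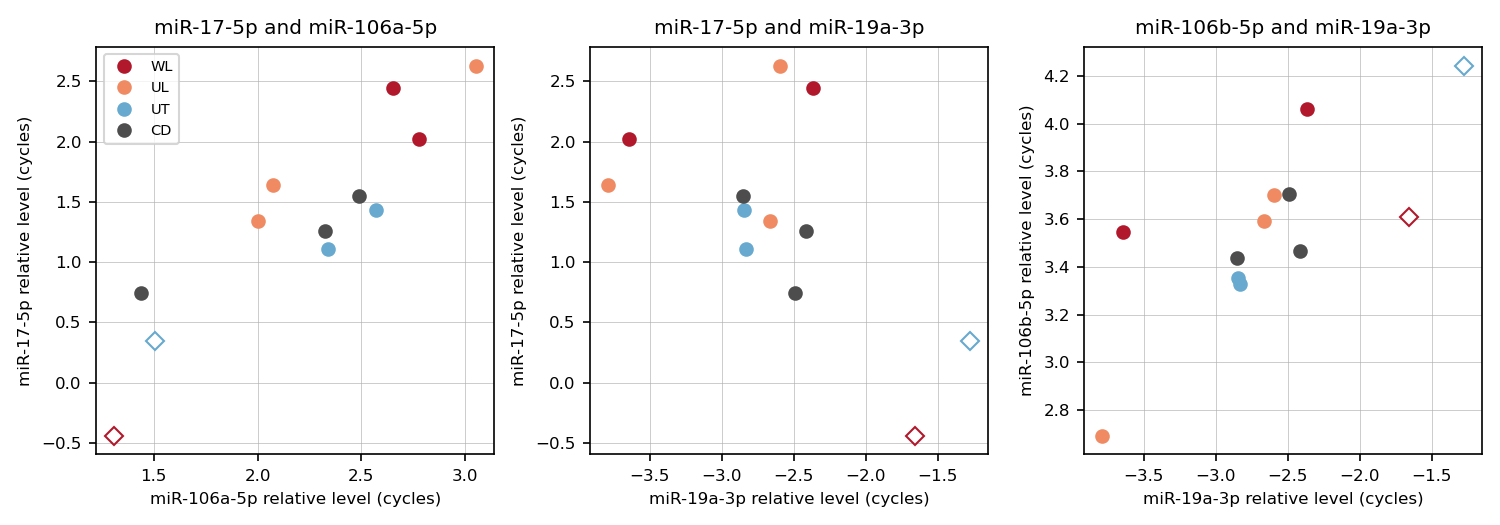
Relative levels in cycles of miR-17-5p against miR-106a-5p, miR-17-5p against miR-19a-3p, and miR-106b-5p against miR-19a-3p; points are pools coloured by group, and open diamonds are UT 2 and WL 3. The first pair has r = 0.90, the second -0.59 and the third 0.75 over 12 pools.

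The related clusters share some of the members' seeds. On chromosome 5, miR-106b-5p and miR-93-5p share the seed of miR-17-5p, and miR-25-3p that of miR-92a-3p. miR-93-5p was the highest of all these, at a mean relative level of 5.70 (rank 38), and followed miR-92a-3p with r = 0.84 over 12 pools and 0.67 over 10. miR-106b-5p, at 3.56, did not follow miR-17-5p (r = -0.10) but lay with miR-19a-3p (r = 0.75, and 0.72 over 10 pools). miR-25-3p had r = -0.19 with miR-92a-3p, from which it differs at 3 positions, and 0.68 with miR-19b-3p. miR-93-5p had r = 0.64 with miR-17-5p, and 0.74 over 10 pools. Over the 10 pools the other pairs with a shared seed had r = 0.32, for miR-106b-5p with miR-17-5p, and 0.07, for miR-25-3p with miR-92a-3p, so both signs turned.

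0 of 4 assays of the chromosome 5 cluster, and 0 of the 5 assays of the chromosome X cluster that gave a Ct in all pools, passed the limma test against CD in WL, UL or UT. In the X cluster, miR-20b-5p, 2 bases from miR-17-5p (U10C and C12U), was at -2.43, -2.29 and -5.23 in WL and -3.74, -2.85 and -3.23 in UL. It gave a Ct in 1 pool each of UT, at -6.53, and CD, at -9.73, and none in the other pools of those groups. With a Ct in 1 CD pool, at 34.53, no fold change or test against CD is given for it. miR-363-5p, a late assay with Ct averaging 33.07, read -5.72, -7.22 and -4.73 in UT, against -9.69, -9.66 and -8.73 in CD (3.47, SE 0.77, limma adjusted p = 0.052). It passed the threshold under 8 of 23 alternatives, with a limma adjusted p of 0.017 to 0.239 over them. Without UT 2 and WL 3 it was 4.13 above CD (SE 0.78, limma adjusted p = 0.021). Of all 504 microRNAs, limma called 7 in UT with all pools and 15 without these 2. In WL miR-363-5p differed from CD by 1.69 and in UL by -0.55 (SE 0.77 each, limma adjusted p 0.663 and 0.995). The other arm of its hairpin, miR-363-3p, averaged Ct 27.99 and was 0.52 above CD in UT (SE 0.47, limma adjusted p = 0.809).

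Besides miR-17-3p, 2 other arms of the cluster's hairpins were found by name on the panel, and both read lower than their main arms. The assays of those main arms also read the copies on chromosome X, and assays may differ in efficiency. The readings therefore do not measure how scarce an arm is. miR-19b-1-5p, the other arm of Mir19b-1, averaged -4.14, and miR-92a-1-5p, the other arm of Mir92-1, averaged -5.78. Both had their lowest reading in WL 2, at -7.04 and -9.58, where the main arms miR-19b-3p and miR-92a-3p were at 0.21 and 4.87. Neither passed the limma test against CD (differences of -0.79 and -1.33 in WL, limma adjusted p of 0.959 and 0.873). Without UT 2 and WL 3 those differences were -2.13 (SE 0.64, limma adjusted p = 0.314) and -2.31 (SE 0.92, limma adjusted p = 0.470), in a WL group that then held WL 1 and WL 2.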

How the data were processed

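MicroRNAs were measured by quantitative RT-PCR in 12 pools of epididymal fat, 3 per group. Per the labels' protocols, total RNA came from about 22 mg of fat pad by the miRNeasy kit. Not given in the sources used here are the PCR platform, the rule for the cycle threshold and RNA integrity. Threshold cycles (Ct) as they were before normalization, per the file headers, were the values tested. The authors also deposited normalized values, each a ratio per the file headers. Subtracting the log2 ratio from Ct left a single constant per pool (24.74 to 25.46, varying by at most 0.01). The ratio therefore increases with a later Ct, contrary to its header, and was turned when used as an alternative. The authors' table of fold changes was not used. Of 507 rows, 1 repeated another and 2 were reference RNAs, leaving 504 microRNAs.

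Relative levels were the average Ct of the 466 microRNAs with a value in all 12 pools, minus Ct. The filter (Ct under 35 in at least 3 pools) removed 0. limma 3.58.1 in R 4.3.3 (lmFit, eBayes, 1 model of 4 groups, prior df 3.36) gave fold changes, with Benjamini-Hochberg adjustment over 504 microRNAs and a threshold of 0.05. The script was tested on simulated data. PCR gives no counts, and precision rests on 3 pools a group: the median SE of a log2 fold change from CD was 0.43 to 0.44. All 7 members are reported. The other arms, the paralogs, and the microRNAs nearest by Pearson's r (5 for the mean profile, 1 for each member) are named by rule. Members, lists and tests were chosen with earlier results of these data known. Alternatives were other scalings, filters, missing late Ct, 2-group fits, a replicate block, a correction for assays next in accession order (5 on each side) and each pool left out. Leaving out UT 2 and WL 3 together was added after seeing the data.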

Additional observations from a re-analysis of the deposited data

How the results depend on the processing

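Of 966 values (7 members in 6 comparisons under 23 alternatives), 965 kept their side of the threshold and 1 became called, miR-17-3p in UL against CD without UT 2 and WL 3, which makes 1 member past the threshold there. Scaling to RNU-43 moved the median of the members to 0.41 in UL against CD, 0.69 in UT against CD, -0.16 in WL against UL, -0.44 in WL against UT and -0.0733 in UL against UT. Subtracting neighbouring assays gave -0.14 in WL against UT. Leaving out single pools gave medians of 0.0029 to 0.69 in UL against UT and 0.11 to 0.61 in WL against CD. The cause was not tested. Signs held under all alternatives for 4 members in WL, 4 in UL and 2 in UT against CD, though several alternatives cannot change a fold change. Replicate numbers did not pair the pools: same-numbered pools had r of -0.27 to 0.26 over 18 pairs. With the replicate block, miR-17-3p in UL stayed at 1.51 (limma adjusted p = 0.697), and 0 members passed. Precision is limited by 3 pools a group and by members with a residual SD of up to 0.92.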
